A study of Mus musculus with 8 samples.

Results

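The nuclear genes for the subunits of respiratory complexes II, III and IV and of ATP synthase (complex V) were compared between young adult and aged mouse brain. The members were the protein-coding genes whose symbols fit the naming scheme of these subunits (Sdha to Sdhd, the Uqcr genes and Cyc1, the Cox4 to Cox8 genes, and the Atp5 genes), 51 of the 22430 genes listed. They were 4 genes of complex II, 9 of complex III, 19 of complex IV and 19 of complex V. In total 50 of the 51 passed the filter on low counts (more than 5 counts in at least 4 of 8 libraries). The exception was Cox8c, with 2 counts in 6m replicate 2, 1 count in 24m replicate 4 and none in the other 6 libraries.

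Complexes II, III and IV sit in the inner mitochondrial membrane, take electrons from succinate and ubiquinol to oxygen and, in the case of III and IV, pump protons, and complex V uses the proton gradient to make ATP. Complex II is built from nuclear genes alone, whereas the other complexes join a few catalytic or channel-forming subunits encoded in mitochondrial DNA with many nuclear-encoded ones. Neurons depend on this pathway for ion pumping and synaptic transmission, and complex IV has paired subunit genes, of which one form is used in most tissues and the other in muscle, lung or testis.

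RNA was taken from the brains of 8 male wild-type C57Bl/6JRj mice, 4 aged 6 months (6m) and 4 aged 24 months (24m), each a separate animal. The labels name the tissue whole brain, and the methods describe a homogenised hemisphere. Poly(A) RNA was made into directional libraries, and reads were counted per gene. Totals ran from 63460940 to 103462414 counts per library, with 24m replicate 1 the deepest.

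All 6 neuronal markers checked were detected, with a summed level of 3287 to 3404 CPM (counts scaled to library size with the trimmed mean of M values, TMM) in 6m and 3349 to 3584 CPM in 24m. Single markers moved both ways, with the vesicle calcium sensor Syt1 called higher (93.0 to 273 CPM, log2 fold change 1.55), the tubulin Tubb3 called lower (1166 to 753 CPM, -0.63), and Snap25 at 0.55 and Rbfox3 at -0.35. The summed level of 6 oligodendrocyte markers was 3282 to 4137 CPM in 6m and 3540 to 4159 CPM in 24m. Of 6 astrocyte markers 5 were called higher at 24m, where 25.3% of all genes tested were called higher and 18.3% lower by the adjusted p and fold change rule used for the members, and their sum moved from 423 to 472 CPM in 6m to between 880 and 1025 CPM in 24m. Of 5 markers of parvalbumin interneurons 4 were called higher, while Pvalb itself was called lower (-0.89). Near the shares of all genes were 2 of 6 microglial markers called higher (Cx3cr1 at 1.72) and 1 lower and 1 higher of 6 endothelial ones. Of 6 choroid plexus markers 3 were called higher, but the list's sum, mostly Ttr, was 1777 to 3198 CPM in 6m and 823 to 2255 CPM in 24m. Ttr (-0.79) and Folr1 (-0.85) were not called, and both were called lower without 24m replicate 1 (-1.07 and -1.24). All 6 testis germ cell markers were below 1 CPM in every library. In bulk tissue, fewer cells of a type and less RNA per cell cannot be told apart, and the part of these marker shifts in the results on the subunits was not tested.

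Of the 50 tested members, 39 were called lower at 24m and 0 were called higher. A gene was called at an adjusted p of at most 0.05 in the edgeR quasi-likelihood test with a log2 fold change of at least 0.58 in size. Over all 16730 genes tested, 18.3% were called lower and 25.3% higher by the same rule. By the adjusted p alone 45 members were lower and 0 higher, against 29.9% lower among all genes. The median log2 fold change was -1.01 over the members and 0.00 (-0.0034) over all genes tested. In 41 members every 24m library lay below every 6m library, and 26.8% of all genes showed that arrangement. Scaling by library totals alone moved the median of all genes to 0.21 and that of the members to -0.81, and 33 members were then called lower and 0 higher. Of all 16730 genes, 1746 were then called lower and 5449 higher, against 3058 and 4237 with TMM. That scaling also moved the share of higher genes among all calls from 58.1% to 75.7%, and under it Sdha, Uqcrc2 and Atp5f1a came out higher by 0.25, 0.24 and 0.25 on the log2 scale (adjusted p = 0.0433, 0.0180 and 0.00467), below the size threshold. With DESeq2 on quantile-normalized counts, near the study's own processing, the median of all genes was -0.10 and 35 members were called lower.

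**Figure D1:**
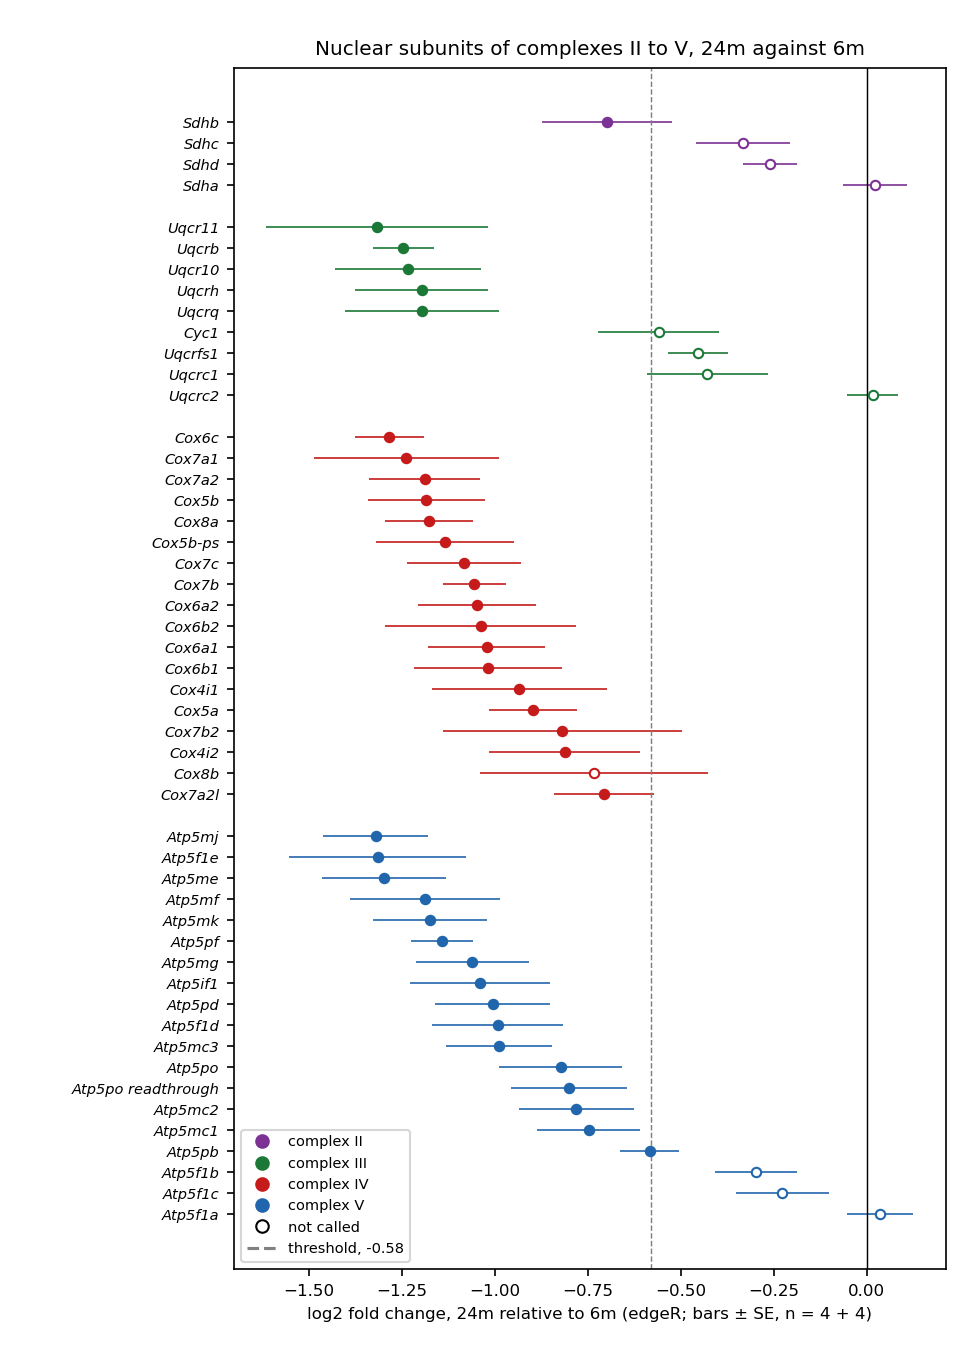
Log2 fold change (24m relative to 6m, horizontal axis) of the 50 tested members, grouped by complex, with bars of ± 1 SE (n = 4 per age). Filled points were called lower, open points were not called and the dashed line marks the threshold of -0.58. The members run from -1.32 to 0.04, and the uncalled ones include the large catalytic and core subunits.

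The shift differed in size among the complexes when read as a share of each library. Complex II subunits held 0.112 ± 0.00164% of all counts in 6m and 0.108 ± 0.00171% in 24m (mean ± SD, n = 4 each). Complex III subunits held 0.385 ± 0.0221% and 0.260 ± 0.0493%. Complex IV subunits held 0.852 ± 0.0439% in 6m and 0.478 ± 0.102% in 24m. Complex V subunits held 1.14 ± 0.0418% and 0.863 ± 0.0980%. For complexes III, IV and V every 24m library was below every 6m library. For complex II the ages overlapped slightly, with 0.110% in both the lowest 6m and the highest 24m library. The per-library values are raw counts divided by the library total, so they amount to scaling by library totals alone, without TMM. For complex II the median log2 fold change was -0.30 with TMM and -0.08 with library totals alone. The differences between complexes were not tested.

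**Figure D2:**
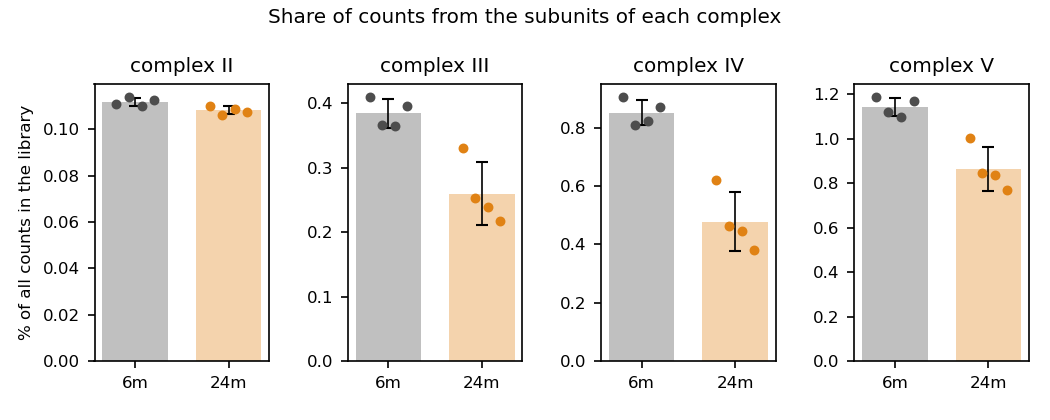
Percent of all counts in each library (vertical axis) that came from the subunit genes of complexes II, III, IV and V. Bars are means, whiskers ± SD and points the 4 libraries of each age in order of replicate number. The share of complex IV was 0.809% to 0.905% in 6m and 0.383% to 0.621% in 24m, while those of complex II overlapped between ages.

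The members' promoters are shown for 5 genes because most subunit genes fell together while Sdha did not pass the test. Windows from 250 bases before to 50 bases after the gene start were taken from RefSeq (GRCm38.p6), in which 35 of the 51 members had an entry under their symbol or an older one. They were searched on both strands for GCATGCGC, the core of the motif of NRF-1 (nuclear respiratory factor 1), and for CCGGAAG, the core motif of ETS factors such as GABP. The stretches below are the 200 bases before the start, 5′ to 3′ in the direction of the gene, with matches to either motif in capitals. Apart from Sdha, they are, in each complex, the called member with the lowest log2 fold change whose whole window holds both motifs. Some of these matches lie outside the 200 printed bases. The members were thus picked for their motifs, and their contrast with Sdha follows from that choice.
Sdha (chr13:74350241-74350440, minus strand): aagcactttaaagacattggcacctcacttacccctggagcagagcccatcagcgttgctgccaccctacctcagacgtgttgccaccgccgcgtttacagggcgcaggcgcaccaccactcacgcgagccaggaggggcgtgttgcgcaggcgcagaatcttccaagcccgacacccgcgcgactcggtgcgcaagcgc
Sdhb (chr4:140961071-140961270, plus strand): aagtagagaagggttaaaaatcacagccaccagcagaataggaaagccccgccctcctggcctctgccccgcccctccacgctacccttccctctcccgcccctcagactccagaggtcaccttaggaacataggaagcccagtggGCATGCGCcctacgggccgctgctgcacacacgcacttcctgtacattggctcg
Uqcr11 (chr10:80406822-80407021, minus strand): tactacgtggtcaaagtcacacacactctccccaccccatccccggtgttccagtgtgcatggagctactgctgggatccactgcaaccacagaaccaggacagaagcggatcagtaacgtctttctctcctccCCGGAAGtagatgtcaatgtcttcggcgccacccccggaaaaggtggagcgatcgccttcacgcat
Cox6a1 (chr5:115348959-115349158, minus strand): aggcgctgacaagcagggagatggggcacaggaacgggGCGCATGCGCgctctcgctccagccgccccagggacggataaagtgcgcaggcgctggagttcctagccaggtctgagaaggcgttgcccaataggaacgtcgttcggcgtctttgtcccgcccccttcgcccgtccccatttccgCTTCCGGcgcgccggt
Atp5me (chr5:108434400-108434599, minus strand): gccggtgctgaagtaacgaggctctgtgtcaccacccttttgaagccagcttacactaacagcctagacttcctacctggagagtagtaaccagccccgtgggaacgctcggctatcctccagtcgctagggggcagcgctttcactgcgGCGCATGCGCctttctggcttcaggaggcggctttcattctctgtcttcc

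In Cox6a1 and Atp5me the capitals of GCGCATGCGC are 2 overlapping matches to the NRF-1 core, 1 on each strand. The Sdha stretch holds no match to either core. Over the 35 windows, 7 (20%) held the NRF-1 core, against 2.80% of the 27025 promoter windows of all genes. The ETS core was found in 11 of the 35 (31.4%), against 9.12% of all windows. Among the 28 windows of members called lower, 6 held the NRF-1 core and 10 the ETS core, and among the 7 windows of members not called, 1 held each (Uqcrc1 and Sdhd). Neither core was found in 17 of the 28, among them Uqcr10, Cox5b and Cox7a2, nor in 5 of the 7. A match is a description of the letters and shows no binding.

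Complex II, succinate dehydrogenase, parted along its subunits. Sdha, the flavoprotein that oxidises succinate (ENSMUSG00000021577, GRCm39 chr13:74469359-74498436, 15 exons), was at 512, 554, 525 and 577 CPM in 6m replicates 1 to 4 and at 498, 539, 583 and 583 CPM in 24m replicates 1 to 4. The ages overlapped, and the log2 fold change was 0.02 ± 0.09 (SE, adjusted p = 0.83, edgeR). It ranged from -0.34 with length and GC trends removed to 0.39 with DESeq2 after quantile normalization (adjusted p = 0.0128 and 0.00482), so its direction depends on the processing. Sdhb, the iron-sulfur protein that passes electrons on from the flavin (ENSMUSG00000009863, chr4:140688502-140709380, 8 exons), was at 467, 414, 417 and 446 CPM in 6m. In 24m it was at 383, 246, 240 and 205 CPM, so all aged libraries were lower, but replicate 1 sat near the young ones. Sdhb fell by 0.70 ± 0.17 on the log2 scale (adjusted p = 0.00615) and by 0.90 without 24m replicate 1. With library totals alone as scaling it fell by 0.49, under the threshold.

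The membrane anchors Sdhc and Sdhd, which hold the enzyme in the membrane and bind ubiquinone, passed the adjusted p but not the size threshold. Sdhc averaged 151 ± 9.78 CPM in 6m and 120 ± 22.4 in 24m (log2 fold change -0.33 ± 0.13, adjusted p = 0.0417). Sdhd was at 77.1 ± 2.84 CPM and 64.4 ± 3.29 CPM (-0.26 ± 0.07, adjusted p = 0.0111). With library totals alone neither passed the adjusted p in edgeR (Sdhc -0.12, adjusted p = 0.282, and Sdhd -0.04, adjusted p = 0.53). Nor did they with the length trend removed (Sdhc -0.25, adjusted p = 0.0615, and Sdhd 0.10, adjusted p = 0.275). The ratio of Sdhb to Sdha counts was 0.913, 0.746, 0.795 and 0.773 in 6m and 0.770, 0.457, 0.412 and 0.352 in 24m, so 24m replicate 1 alone lay within the young range. This ratio was picked after the values were seen and was not tested.

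In complex III, the cytochrome bc1 complex, all 5 small accessory subunits were called lower and none of the core or redox subunits was. The shares called lower were 18.3% of all genes tested and 54.6% of protein-coding genes with a coding length under 500 bases. Uqcr11 (ENSMUSG00000020163, chr10:80236542-80242676) was at 584, 433, 440 and 606 CPM in 6m and at 341, 215, 160 and 112 CPM in 24m. Every aged library was lower, with a wide spread among them, and the log2 fold change was -1.32 ± 0.30 (adjusted p = 0.00379). Uqcrb, a subunit next to the ubiquinone site, was at 101, 87.5, 90.1 and 93.5 CPM in 6m and at 41.7, 40.9, 38.0 and 36.2 CPM in 24m. Its aged libraries lay close together, and it fell by 1.25 ± 0.08 (adjusted p = 1.83e-05).

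Uqcr10 was at 451, 362, 370 and 428 CPM in 6m and at 249, 162, 152 and 122 CPM in 24m (log2 fold change -1.23 ± 0.20, adjusted p = 0.000607). Uqcrq moved from 512 ± 51.1 CPM to 224 ± 77.2 CPM (-1.20 ± 0.21, adjusted p = 0.000936). Uqcrh, the hinge protein at the cytochrome c1 interface, moved from 607 ± 79.4 CPM to 264 ± 70.6 CPM (-1.20 ± 0.18, adjusted p = 0.000431). These small subunits were thus at 40.1% to 43.6% of their 6m level.

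The electron-carrying nuclear subunits moved less. Cyc1, cytochrome c1, averaged 613 ± 36.7 CPM in 6m and 416 ± 110 in 24m (log2 fold change -0.56 ± 0.16, adjusted p = 0.0130). It reached -0.74 and a call when 24m replicate 1 was left out. Uqcrfs1, the Rieske iron-sulfur protein, was at 249 ± 9.58 CPM and 182 ± 14.5 CPM (-0.45 ± 0.08, adjusted p = 0.00106).

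The core proteins Uqcrc1 and Uqcrc2 form the matrix side of the complex and carry no redox centre. Uqcrc1 was at 999, 890, 859 and 969 CPM in 6m and at 953, 639, 625 and 546 CPM in 24m, where replicate 1 again fell among the young values. It gave -0.43 ± 0.16 (adjusted p = 0.0411) with all libraries, and -0.60 with a call when that one was left out. Uqcrc2 (ENSMUSG00000030884, chr7:120233976-120260035, 14 exons) was at 227, 243, 232 and 235 CPM in 6m and at 237, 228, 234 and 249 CPM in 24m. The ages overlapped fully, and Uqcrc2 did not pass (0.02 ± 0.07, adjusted p = 0.847). Counts of Uqcr10 per count of Uqcrc2 went from 1.72 ± 0.221 in 6m to 0.726 ± 0.235 in 24m, a ratio chosen after the values were seen and not tested.

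Complex IV, cytochrome c oxidase, had 17 of its 18 tested members called lower. Among all genes tested the share was 18.3%, and among protein-coding genes with a coding length under 500 bases 54.6%. All 10 ubiquitous forms were called, with log2 fold changes from -1.29 to -0.90. Cox4i1 (ENSMUSG00000031818, chr8:121391505-121400950), the regulatory subunit that binds ATP, was the most counted member of this complex, with 3329, 2751, 2812 and 3221 CPM in 6m. In 24m it was at 2528, 1397, 1327 and 1087 CPM. All aged libraries were lower, and replicate 1 was much closer to the young group than to the other aged libraries. Cox4i1 fell by 0.93 ± 0.24 (adjusted p = 0.0066) and by 1.23 without 24m replicate 1. It was at -0.55, without a call, when DESeq2 followed quantile normalization.

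Cox6c (ENSMUSG00000014313, chr15:35923634-35938392) was at 711, 657, 650 and 744 CPM in 6m and at 310, 285, 286 and 251 CPM in 24m. Here 24m replicate 1 stood with its group, and Cox6c fell by 1.29 ± 0.09 (adjusted p = 2.21e-05). Cox5b, a zinc-binding subunit on the matrix side, was at 990, 819, 818 and 916 CPM in 6m and at 523, 364, 366 and 305 CPM in 24m (-1.18 ± 0.16, adjusted p = 0.000251). Cox5a, its partner on the matrix side, was at 431, 400, 403 and 451 CPM and at 278, 222, 216 and 189 CPM (-0.90 ± 0.12, adjusted p = 0.00023).

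Cox7a2 moved from 453 ± 52.7 CPM to 199 ± 41.6 CPM (log2 fold change -1.19 ± 0.15, adjusted p = 0.00018). Cox8a moved from 1028 ± 81.7 CPM to 454 ± 62.3 CPM (-1.18 ± 0.12, adjusted p = 6.51e-05). Cox7b, which is on the X chromosome, moved from 210 ± 10.2 CPM to 101 ± 9.16 CPM (-1.06 ± 0.09, adjusted p = 2.85e-05). Cox6a1 went from 991 ± 88.2 CPM to 488 ± 111 CPM (-1.02 ± 0.16, adjusted p = 0.000516), and Cox6b1, which faces cytochrome c, from 691 ± 57.0 CPM to 341 ± 113 CPM (-1.02 ± 0.20, adjusted p = 0.00174). Cox7c fell by 1.08 ± 0.15 (adjusted p = 0.000324).

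The muscle, lung and testis forms of complex IV were scarce in brain. Of the 6 that were tested 5 were called lower at 24m, beside 18.3% of all genes tested. With the length trend of each library removed, 0 of the 6 was called, and their median went from -0.93 to -0.38. Cox7a1, the heart and skeletal muscle form of subunit 7a, was at 11.4, 8.43, 8.82 and 10.4 CPM in 6m and at 6.50, 3.98, 3.27 and 2.79 CPM in 24m (log2 fold change -1.24 ± 0.25, adjusted p = 0.00202). Cox6a2, the muscle form of subunit 6a, was at 19.9, 18.6, 16.9 and 18.2 CPM and at 11.4, 8.94, 8.72 and 6.50 CPM (-1.05 ± 0.16, adjusted p = 0.000463). In both genes every aged library was below every young one. Cox6b2, the testis form of subunit 6b, had a mean of 10.8 CPM in 6m and 5.27 CPM in 24m (-1.04 ± 0.26, adjusted p = 0.00612). Cox4i2, the form of subunit 4 typical of lung, moved from 5.87 ± 0.716 CPM to 3.33 ± 0.958 CPM (-0.81 ± 0.20, adjusted p = 0.0063).

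Cox8b, the muscle form of subunit 8, was at 5.23, 3.96, 3.86 and 5.48 CPM in 6m and at 4.17, 2.91, 2.80 and 1.25 CPM in 24m. The ages overlapped through 24m replicate 1, and its log2 fold change of -0.73 ± 0.31 missed the threshold (adjusted p = 0.0589). It was called at -0.98 without that library. Cox7b2, a testis form, was at 0.28 to 0.67 CPM in 6m and 0.15 to 0.31 CPM in 24m, with overlap between the ages (-0.82 ± 0.32, adjusted p = 0.0473). Its call was lost when any of 24m replicates 1, 2, 3 or 4 or 6m replicates 1, 3 or 4 was left out. Without 24m replicate 1, for example, its log2 fold change was -0.81 with an adjusted p of 0.0581.

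Markers of skeletal muscle were also lower as counted, 5 of 6 being called, beside 18.3% of all genes tested. With the length trend removed 4 of the 6 markers were still called (median -0.83), beside 17.2% of all genes, unlike the tissue forms. Their summed level was 26.2 to 28.8 CPM in 6m and 12.9 to 17.5 CPM in 24m, of which the muscle actin Acta1 made up a mean of 20.5 CPM in 6m, and Myh4 and Tnnt3 were below 1 CPM in every library. Of 8 markers of pericytes and vascular smooth muscle 3 were called lower and 2 higher (all genes tested, 18.3% and 25.3%), and their sum was 177 to 239 CPM in 6m and 121 to 159 CPM in 24m. The part of either list in the values of the tissue forms was not tested.

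Cox7a2l, a relative of Cox7a2, was at 207, 197, 200 and 235 CPM in 6m and at 167, 121, 118 and 109 CPM in 24m. All aged libraries were lower, and the log2 fold change of -0.71 ± 0.13 (adjusted p = 0.0015) was the smallest in size among the tested members of complex IV as counted. With the length trend removed it was -1.09, larger in size than most of them, and with library totals alone it was -0.50 and not called. Cox5b-ps, an intronless retrogene of Cox5b on chromosome 13, was lower too (-1.13 ± 0.19, adjusted p = 0.000701). Its counts were 0.0928 ± 0.00788 of those of Cox5b in 6m and 0.0947 ± 0.00599 in 24m. Reads of the retrogene and its parent may not be separable, since how reads with several matches were counted is not stated.

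In complex V, 16 of 19 members were called lower, beside 18.3% of all genes tested. The F1 head, in which Atp5f1a and Atp5f1b encode the alpha and beta subunits that carry out catalysis, was not called. Atp5f1a was at 1423, 1443, 1377 and 1521 CPM in 6m and at 1639, 1414, 1486 and 1373 CPM in 24m. The ages overlapped, and the log2 fold change was 0.04 ± 0.09 (adjusted p = 0.739). DESeq2 after quantile normalization put it at 0.39 (adjusted p at most 1e-10), under the size threshold. Atp5f1b was at 3096, 2894, 2849 and 3228 CPM in 6m and at 2877, 2390, 2408 and 2145 CPM in 24m, with overlap through 24m replicate 1 (-0.30 ± 0.11, adjusted p = 0.0382). Its sign turned when DESeq2 was run after quantile normalization (0.23, adjusted p = 0.000176).

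The central stalk that turns inside the head was split. Atp5f1c, the gamma subunit, was at 416, 401, 390 and 420 CPM in 6m and at 445, 329, 323 and 293 CPM in 24m. Its highest value was in an aged library, and its log2 fold change of -0.23 ± 0.13 did not pass (adjusted p = 0.138). Without 24m replicate 1 it was -0.35 with an adjusted p of 0.000762, still under the size threshold. The delta subunit Atp5f1d was at 664 to 823 CPM in 6m and 280 to 521 CPM in 24m (-0.99 ± 0.18, adjusted p = 0.00104). The epsilon subunit Atp5f1e (ENSMUSG00000016252, chr2:174302861-174305906) was at 512, 407, 420 and 461 CPM in 6m and at 289, 162, 153 and 120 CPM in 24m, with every aged library lower. It fell by 1.32 ± 0.24 (adjusted p = 0.00118). Counts of Atp5f1e per count of Atp5f1a were 0.312 ± 0.0333 in 6m and 0.120 ± 0.0388 in 24m.

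The small subunits around the membrane part, which bend the membrane and join ATP synthase dimers, were all called. Of protein-coding genes with a coding length under 500 bases 54.6% were called lower. Atp5mj was at 218, 176, 182 and 219 CPM in 6m and at 101, 75.0, 75.8 and 65.4 CPM in 24m (log2 fold change -1.32 ± 0.14, adjusted p = 8.63e-05), the lowest of all members. Atp5me, the e subunit, was at 287, 279, 260 and 287 CPM and at 158, 106, 104 and 84.7 CPM (-1.30 ± 0.17, adjusted p = 0.000211). In both, no aged library reached the young range. The other members of this class were Atp5mf (-1.19), Atp5mk (-1.18) and Atp5mg (-1.06).

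The peripheral stalk, which keeps the head from turning, had all 4 of its genes called, beside 18.3% of all genes tested. Their log2 fold changes were -1.14 for Atp5pf, -1.01 for Atp5pd, -0.82 for Atp5po and -0.58 for Atp5pb. Atp5pb sat at the threshold and averaged 431 ± 19.7 CPM in 6m and 287 ± 17.3 in 24m, with an adjusted p of 0.000259. With library totals alone Atp5pb was at -0.37 and lost its call. In its weakest fit Atp5po was at -0.53, under the size threshold. A readthrough entry that shares exons with Atp5po was also lower (-0.80), and Atp5po counts were 1.30 ± 0.0419 times those of that entry in 6m and 1.27 ± 0.0328 times in 24m, so these are not separate observations. The inhibitor Atp5if1, which binds the head when the gradient collapses, fell by 1.04 ± 0.19 (adjusted p = 0.00116).

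**Figure D3:**
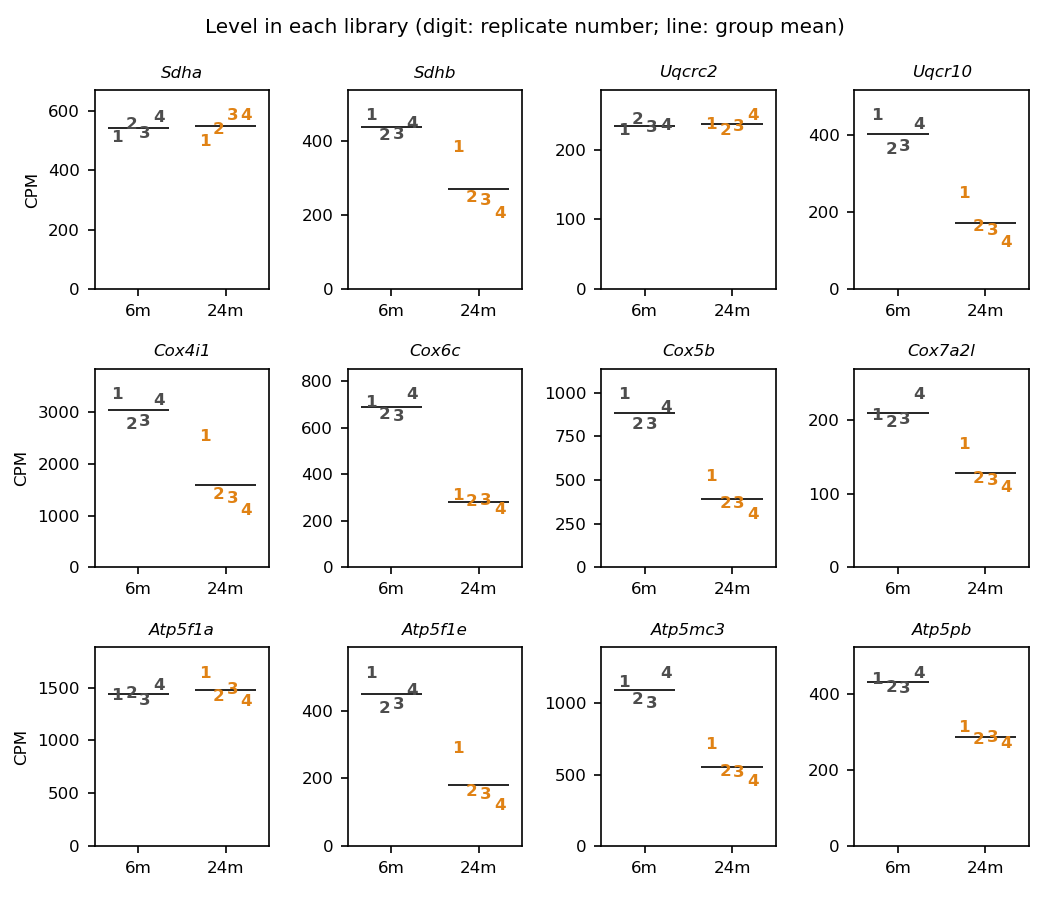
Level (CPM, vertical axis) of 12 members in each library, with each digit a replicate number and each line a group mean, for 6m and 24m. Sdha, Uqcrc2 and Atp5f1a overlap between ages, whereas Uqcr10, Cox5b, Cox6c and Atp5f1e do not, and 24m replicate 1 is the highest aged library in Sdhb and Cox4i1 (2528 CPM against 1087 to 1397 CPM).

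The c ring has 3 genes, Atp5mc1, Atp5mc2 and Atp5mc3, whose proteins differ in the targeting peptide and give the same mature subunit. Atp5mc3 was at 1146, 1024, 1002 and 1213 CPM in 6m and at 714, 525, 518 and 453 CPM in 24m (log2 fold change -0.99 ± 0.14, adjusted p = 0.000367). Atp5mc2 was at 268, 259, 251 and 282 CPM and at 209, 146, 143 and 119 CPM (-0.78 ± 0.15, adjusted p = 0.00183). Atp5mc1 was at 382, 323, 327 and 357 CPM and at 264, 205, 194 and 164 CPM (-0.75 ± 0.14, adjusted p = 0.00129). All 3 were lower in every aged library than in any young one, an arrangement shown by 26.8% of all genes. With library totals alone Atp5mc1 (-0.54) and Atp5mc2 (-0.57) fell under the size threshold and lost their calls, and Atp5mc1 also did so when DESeq2 followed quantile normalization (-0.57).

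To ask whether the mixture of isoforms changed, the log2 ratio of the counts in each of 10 pairs was compared between ages by an exact two-sided permutation test. With 4 libraries per age the smallest p is 0.0286, and none of the 8 pairs given here passed 0.05 after adjustment over all 10. At least 6 of the 10 would have to reach the smallest p for any to pass, so the adjusted values say little here about stability or change. The ratio of Cox7a2l to Cox7a2 was -1.13, -1.10, -1.03 and -1.17 in 6m and -0.63, -0.64, -0.65 and -0.58 in 24m. The ages did not overlap, and the difference was 0.48 (exact p = 0.0286, adjusted p = 0.0952, higher in 4 of 4 aged libraries). Per kilobase of exon, Cox7a2l was at 25.2 ± 1.02% of Cox7a2 in 6m and at 35.1 ± 0.804% in 24m.

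Within the c ring, Atp5mc2 against Atp5mc3 ran from -2.11 to -1.98 in 6m and from -1.93 to -1.77 in 24m. Again no library crossed over, with a difference of 0.19 (exact p = 0.0286, adjusted p = 0.0952, higher in 4 of 4 aged libraries). The ratio of Atp5mc2 to Atp5mc3 turned in direction when trends over gene length and GC content were taken out of the counts, to -0.27 (exact p = 0.0571). Cox7a2l against Cox7a2 kept its direction at 0.18 (exact p = 0.0286).

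For the muscle, lung and testis forms no exact p as counted was under 0.05, and the spread leaves room for changes in either direction. The log2 ratio of Cox6a2 to Cox6a1 was -5.75 ± 0.12 in 6m and -5.77 ± 0.02 in 24m (difference -0.03, exact p = 0.914), and single differences between an aged and a young library ran from -0.23 to 0.09. Cox6b2 against Cox6b1 differed by -0.03 (exact p = 0.714, single differences -0.36 to 0.26) and Cox7a1 against Cox7a2 by -0.10 (exact p = 0.543, -0.55 to 0.35). Differences were 0.16 for Cox4i2 against Cox4i1 (exact p = 0.229, -0.13 to 0.39), 0.28 for Cox7b2 against Cox7b (exact p = 0.4, -0.74 to 1.15) and 0.35 for Cox8b against Cox8a (exact p = 0.229, -0.52 to 1.07). With the trends over length and GC content removed, the ratio was higher at 24m by 0.90 for Cox7a1, 0.56 for Cox4i2 and 0.28 for Cox6b2 (exact p = 0.0286 for each). In that setting the difference was 0.0015 for Cox8b, 0.060 for Cox6a2 and 0.39 for Cox7b2. The reading of these pairs thus depends on that step.

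Per kilobase of exon, Cox4i2 was at 0.453 ± 0.0152% of Cox4i1 in 6m, Cox6a2 at 1.94 ± 0.168% of Cox6a1 and Cox6b2 at 3.12 ± 0.321% of Cox6b1. Cox7a1 was at 21.2 ± 2.56% of Cox7a2 on that scale. The length used for Cox7a2 is 5914 bases of annotated exon and that for Cox7a1 603 bases, and both rest on every annotated transcript. For Cox8c and Cox8a only the counts given above were available, and the pair was not tested.

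**Figure D4:**
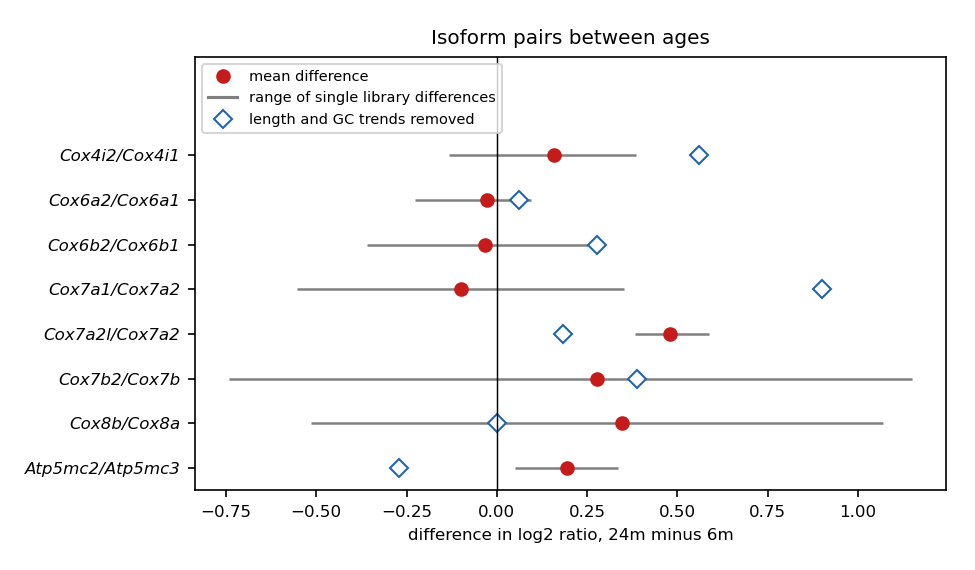
Difference between ages in the log2 ratio of counts (24m minus 6m, horizontal axis) for 8 of the 10 pairs tested. Filled points are differences of means, grey lines the range over the 16 single pairs of an aged and a young library, and open diamonds the difference with length and GC trends removed. The grey line stays above 0 for Cox7a2l/Cox7a2 and for Atp5mc2/Atp5mc3, whose diamond lies at -0.27.

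The size of the fall went with the coding length of the members. Over 48 members (without the readthrough entry and the retrogene), Pearson's r between log2 fold change and log2 coding length was 0.85 and Spearman's rho 0.83. This is a description across genes of the same libraries, which are not independent. None of the 5 members with a coding length of 1000 bases or more was called (Sdha, Uqcrc1, Uqcrc2, Atp5f1a and Atp5f1b, log2 fold changes -0.43 to 0.04). Of the 11 members of at least 500 and under 1000 bases 7 were called lower, with a median of -0.70. Of the 32 members under 500 bases 30 were called lower, with a median of -1.11.

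Across the whole table, too, short genes were called lower more often than long ones. Of all tested protein-coding genes with a coding length under 500 bases, 54.6% were called lower and 7.13% higher (median -0.72). Among those of at least 500 and under 1000 bases it was 28.6% lower and 14.01% higher (median -0.30), and among those of 1000 bases or more 9.7% lower and 31.8% higher (median 0.19). Over 16573 protein-coding genes r was 0.35. When the trend of each library over exonic length was removed, 29 members were called lower and 0 higher, against 17.2% of all genes lower, and the member median was -0.66. In that fit complex IV had 9 members called in place of 17, and complex V 15.

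With the exonic length trend removed, the small subunits of complex III gave -1.26 for Uqcr11 and -0.88 for Uqcr10, and in complex V Atp5mj gave -1.28 and Atp5f1e -1.09. Others moved much closer to 0, and 10 of the 39 calls were lost, 8 of them in complex IV. Uqcrb went from -1.25 to -0.50, Cox8a from -1.18 to -0.44 and Cox6a1 from -1.02 to -0.27, each without a call, and Atp5me went from -1.30 to -0.60 and kept its call. The removal moved the value up in 34 of the 50 tested members and down in 16, among them Cox6c (-1.29 to -1.63), Atp5pf (-1.14 to -1.44), Atp5mk (-1.18 to -1.39), Cox7a2l (-0.71 to -1.09) and Sdhb (-0.70 to -0.98). Sdha gave -0.28 (adjusted p = 0.0116) and Atp5f1a 0.07 (adjusted p = 0.467). The exonic lengths count every annotated transcript. For Cox6c they reach 9416 bases against a coding length of 228 bases, so this correction is rough for single members, and r with coding length was still 0.55 after it.

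**Figure D5:**
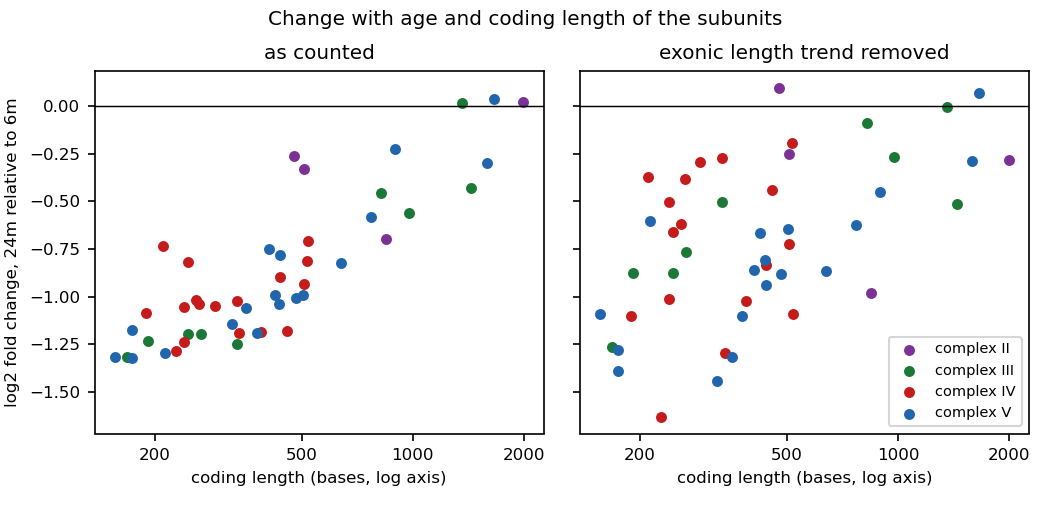
Log2 fold change (24m relative to 6m, vertical axis) against coding length in bases (log axis) for 48 members, as counted (left) and with the exonic length trend of each library removed (right), colored by complex. On the left the points climb from about -1.32 to 0.04 with length (r = 0.85), and on the right the spread among short genes is wider (r = 0.55).

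The libraries of 24m were not alike. Among the 39 members called lower, 24m replicate 1 was the highest aged library in 38 and 24m replicate 4 the lowest in 39. On a scale where 0 is the 6m mean and 1 the mean of the other aged libraries (log2 CPM), 24m replicate 1 lay at a median of 0.49, from 0.20 in Sdhb and Cox4i1 to 0.90 in Uqcrb and Atp5pf. Across 48 members its excess over the other aged libraries went with exonic GC content (r = 0.49), as it did over 16677 genes (r = 0.35). The part of GC content in the position of this library was not tested. Without 24m replicate 1, 41 members were called lower with a median of -1.16. Calls over all genes rose too, to 3592 lower and 4673 higher from 3058 and 4237.

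Other genes of the pathway were read from lists of assembly factors, mitochondrially encoded subunits and regulators. Of 43 assembly factors, which insert cofactors and chaperone subunits, 24 were called lower and 4 higher, with a median of -0.63, beside 18.3% lower and 25.3% higher among all genes tested. Among those called were the copper carrier Cox17 (-1.28 ± 0.13, adjusted p = 6.92e-05), the complex III factor Uqcc3 (-1.21 ± 0.17, adjusted p = 0.000323) and the complex II factor Sdhaf1 (-0.82 ± 0.17, adjusted p = 0.00259). The 4 called higher all belong to complex IV: Cox15 (1.04), Pet117 (1.04), Coa5 (0.70) and Taco1 (0.70). With library totals alone, 15 were called lower and 6 higher. Cycs, the somatic cytochrome c that shuttles between complexes III and IV, moved from 177 ± 4.52 CPM to 104 ± 6.06 CPM (-0.77 ± 0.07, adjusted p = 5.15e-05).

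Of the 6 mitochondrially encoded partners of complexes III to V, 5 were called lower and 0 higher, beside 18.3% lower among all genes tested. mt-Co1, the catalytic subunit of complex IV, fell by 1.08 ± 0.13 (adjusted p = 0.000133) and mt-Cytb of complex III by 1.17 ± 0.13 (adjusted p = 0.00012). mt-Atp8 fell by 0.47 ± 0.11, under the size threshold. With the length trend removed 0 of the 6 were called. When DESeq2 followed quantile normalization 2 were called. Quantile normalization gives a gene that holds the same rank in every library the same value in each. Log2 fold changes of mt-Co1 and mt-Co3 were 1.1e-08 in that fit, which therefore cannot show whether they differ between ages.

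Among 11 regulators of mitochondrial biogenesis, 3 were called higher and 1 lower, shares near or below those of all genes tested (25.3% higher and 18.3% lower), so the counts are no result about the list. Ppargc1a, a coactivator that drives the program, averaged 3.27 ± 0.716 CPM in 6m and 9.37 ± 3.82 in 24m (log2 fold change 1.52 ± 0.31, adjusted p = 0.00212). Gabpa, the DNA-binding part of the ETS factor GABP, was at 1.25 ± 0.425 CPM and 3.20 ± 0.750 CPM (1.36 ± 0.27, adjusted p = 0.00183), and its exons overlap those of the member Atp5pf on the other strand. Yy1 was higher by 0.59 ± 0.11 and Ppargc1b lower by 0.59 ± 0.14, both at the edge of the threshold. Nrf1 (0.22 ± 0.09, adjusted p = 0.0559) and Tfam (-0.02 ± 0.11, adjusted p = 0.908) did not pass.

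The members named by the study, which it chose on these samples, included Sdhb, Uqcr10, Uqcrc2, Uqcrq, Cox5a and Cox5b. Of these 5 were called lower here, and Uqcrc2 was not. The study's list also holds the name Uqcrqb, which matched no symbol in the annotation and was not assigned to a member. They are not independent evidence of a direction.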

How the data were processed

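Poly(A) libraries were sequenced from both ends. The authors trimmed reads (Trim Galore 0.4.11), aligned them to GRCm39 (HISAT2 2.1.0) and counted them per Ensembl gene with featureCounts. The deposited values are raw counts per gene and library, with no normalization and no pooling. Use of strand and of reads with several matches is not given in the sources used here, so overlapping genes and near copies are uncertain. The annotation lists 12 pseudogenes that fit the members' names, none of them in the table.

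Symbols, lengths and positions came from a later GENCODE release of GRCm39, in which 22281 of 22430 genes matched. Members and lists were chosen with earlier results of these data known. A gene was kept if 4 or more of 8 libraries held over 5 counts, and tested with edgeR 4.0.16 (R 4.3.3; quasi-likelihood, TMM, age as the only term) and Benjamini-Hochberg adjustment over all 16730 genes. SE was taken as the size of the log2 fold change divided by √F. Pair ratios used log2 with a prior count of 2 and exact permutation over 70 assignments (scipy), adjusted over 10 pairs, of which 2 are not reported here. CPM were TMM-scaled. Each library came from a separate animal and counted as a replicate. Libraries of one age differed by more than sampling noise (chi-square per degree of freedom 8.24 to 425). Pairs with 24m replicate 1 gave 182 to 425, and all other pairs at most 61.8. DESeq2 1.42.0, limma-voom (limma 3.58.1), other scalings, filters, thresholds, trends over length and GC content (lowess span 0.3), thinning, a replicate block and leaving out each library were tried. Tested on simulated data for 24m against 6m over 16637 genes, the edgeR fit recovered 69.5% of 200 genes changed by a log2 value of 1 and called 13 unchanged ones.

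Genes given in full were, in each complex, the 3 lowest and 2 highest log2 fold changes at a mean of at least 1 CPM, every tested member of a pair, and members the study named. Others in the text were picked after their values were seen.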

Additional observations from a re-analysis of the deposited data

How the results depend on the processing

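Over the 21 other fits, 28 to 41 members were called lower and 0 higher in each, with 28 when length and GC trends were both removed and 41 when the GC trend alone was removed or 24m replicate 1 was left out. Leaving out single libraries gave 37 to 41. Without the readthrough entry and the retrogene, an alternative chosen after seeing the data, the count was 37 of 48. The sign was negative in all fits for 44 members, and 21 were called lower in all of them. For complex II, 0 members were called with DESeq2 on quantile-normalized counts or with library totals alone, and 3 by the adjusted p alone. For complex III, 8 were called by the adjusted p alone. For complex IV, 9 were called with the length trend, or both trends, removed. Assembly factors called lower were 15 with library totals alone, and those called higher were 2 with DESeq2 on quantile-normalized counts. Mitochondrially encoded genes called were 2 with DESeq2 on quantile-normalized counts, 0 with the length trend removed and 1 with both trends removed. For the regulators, 0 were called lower with the GC trend removed, library totals alone, limma-voom or no filter on low counts, and 2 with the length trend or both trends removed. Leaving out single libraries gave 0 to 1, with 0 when 24m replicate 1 or 3, or 6m replicate 1 or 4, was absent. With library totals alone 5 regulators were called higher.

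Uncalled values of 6 members changed sign: Atp5f1b to 0.23 and Atp5f1c to 0.017 (DESeq2 on quantile-normalized counts), Atp5f1a to -0.014 (GC trend removed), Sdhd to 0.10 (length) and 0.048 (both trends), Uqcrc2 to -0.16 (GC), -0.048 (both), -0.0051 (length) and -0.0029 (upper-quartile factors), and Sdha to -0.23 (GC), -0.28 (length) and -0.34 (both). With DESeq2 on quantile-normalized counts Atp5f1a and Sdha were at 0.39. Leaving out 1 library gave -0.0050 to 0.089 for Sdha, negative without 24m replicate 3 or 4 or 6m replicate 1, and -0.0067 to 0.037 for Uqcrc2, negative without 24m replicate 4. With both trends removed the pair differences were 0.56 for Cox4i2/Cox4i1, 0.060 for Cox6a2/Cox6a1, 0.28 for Cox6b2/Cox6b1, 0.90 for Cox7a1/Cox7a2 and -0.27 for Atp5mc2/Atp5mc3. They were 0.0015 for Cox8b/Cox8a, 0.39 for Cox7b2/Cox7b and 0.18 for Cox7a2l/Cox7a2. The cause of the shifts was not tested. Leaving out single libraries gave 0.46 to 0.51 for Cox7a2l/Cox7a2 and 0.17 to 0.22 for Atp5mc2/Atp5mc3. The tissue forms were less steady: 0.18 (without 24m replicate 1) to 0.59 (without 24m replicate 4) for Cox8b/Cox8a, 0.10 (6m replicate 2) to 0.45 (6m replicate 4) for Cox7b2/Cox7b, 0.10 (24m replicate 2) to 0.24 (24m replicate 1) for Cox4i2/Cox4i1 and -0.21 (24m replicate 1) to -0.02 (6m replicate 1) for Cox7a1/Cox7a2. The sign turned for Cox6a2/Cox6a1 (-0.06 to 0.03, positive without 6m replicate 2) and Cox6b2/Cox6b1 (-0.09 to 0.03, positive without 6m replicate 1 or 24m replicate 4).

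The replicate numbers do not pair the samples: same-numbered deviations correlated at 0.27, 0.14, 0.08 and -0.35, and 1 of 4 numbers correlated best with its own. With the replicate block 39 members were called lower, and 6 in complex III and 16 in complex IV. Depth limits Cox7b2 and Cox8c. No value of a named member or pair stood out by Dixon's ratio (0 of 88 groups of 4 libraries). With 4 values per group only a very large gap can stand out, and each gene or pair is taken alone. The test therefore cannot show whether a whole library is displaced. It does not clear 24m replicate 1, the highest aged library in nearly all members called lower.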
